A study of Rattus with 6 samples.

Results

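The genes examined here encode the TGF-beta and activin ligands, their receptors and a pair of feedback inhibitors, 10 genes of the 30211 in the deposited count table, each found by its exact symbol. They are the TGF-beta ligand genes Tgfb1, Tgfb2 and Tgfb3, the activin subunit genes Inhba and Inhbb, the receptor genes Tgfbr1, Tgfbr2 and Tgfbr3, and the inhibitor genes Smad7 and Pmepa1. RNA was sequenced from wild-type rat bone marrow mesenchymal stem cells (BMSC), marrow stromal cells with bone, fat and cartilage potential, collected on day 4 of culture. The 3 control libraries came from cells without dexamethasone, and the other 3 from cells given 100 uM dexamethasone, a synthetic glucocorticoid, a dose printed as the series' design text states it. Groups follow the sample titles, since the treatment tag reads DEX for all 6. Neither vehicle nor the origin of the replicates (separate cultures or animals) is given in the sources used here, so p-values here reflect the spread among these 6 libraries alone and could be measuring technical variation.

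TGF-beta ligands are secreted as dimers held inactive by their own propeptides, which latent TGF-beta binding proteins tether to the matrix until integrins or proteases release them. A released ligand binds the type II receptor (Tgfbr2), which activates the type I receptor (Tgfbr1); the activated pair phosphorylates Smad2 and Smad3, which enter the nucleus with Smad4. Activins, dimers of inhibin beta subunits, reach the same Smads through activin receptors. In bone, TGF-beta stored in the matrix acts on the progenitors of osteoblasts, and Smad7 and Pmepa1, which are transcribed in answer to the pathway, restrain it.

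Library totals ran from 34835072 to 41676315 counts, and the dexamethasone-responsive gene Fkbp5 stood at 69.0 to 71.0 CPM in the controls and at 1290.0 to 1430.2 CPM in the libraries labelled dexamethasone. CPM are counts put on the scale of a common library size with the trimmed mean of M-values (TMM). Of 13 stromal cell markers all 13 were detected, Lepr only at 0.262 and 0.913 CPM on average in controls and dexamethasone libraries. Of the 13, 5 were called higher and 7 lower, beside 32.3% and 31.7% of all tested genes. Among the falls, Prrx1, a mesenchymal transcription factor, went from 727 to 75.6 CPM and Pdgfrb, a receptor of platelet-derived growth factor, from 616 to 137 CPM on average. Among the rises, Pdgfra went from 598 to 965 CPM and Col3a1 from 1996 to 4346 CPM on average. Macrophage markers summed to 12.2 to 12.8 CPM in the controls and 9.42 to 9.90 CPM with dexamethasone, most of it Cd14 (7.27 and 7.65 CPM), while Adgre1, Cd163 and Tyrobp had no count. Cd14 did not pass the test. Where 32.3% of all tested genes were called higher and 31.7% lower, of the 7 macrophage markers tested 0 were called higher and 3 lower. These were Cd68 (1.21 to 0.509 CPM on average), Lyz2 (0.467 to 0.133 CPM) and Cd74 (1.74 to 0.139 CPM), and the untested Itgam held 8, 11 and 8 counts in the controls and 2, 0 and 0 with dexamethasone. In bulk RNA, fewer cells of a type and less RNA per cell cannot be told apart.

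All 10 genes passed the filter on low counts and all 10 were called, 4 higher and 6 lower with dexamethasone, at an adjusted p below 0.05 (edgeR's quasi-likelihood test, Benjamini-Hochberg over 14111 tested genes). The background is high: 64.0% of all tested genes were called, 32.3% as higher and 31.7% as lower. A call alone therefore says little, and size separates the genes more clearly. Of the 10, 2 rose and 4 fell at least 2-fold, against 8.65% and 7.00% of all tested genes (15.6% in either direction). Their median absolute log2 fold change was 1.80, beside 0.31 over all tested genes. The 10 genes were chosen with earlier results of these data known, so sizes above the background are no evidence about the set. Control and dexamethasone libraries did not overlap for any of the 10, where 66.9% of tested genes showed no overlap (33.8% higher and 33.1% lower). Tested against a fold of 1.5, 3 rises and 4 falls passed, where 20.0% of all genes did. With the biological coefficient of variation fixed at 0.2, 3 rises and 5 falls passed, where 26.2% of all genes did. The exons of the 10 genes overlapped those of no other gene in the table.

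**Figure D1:**
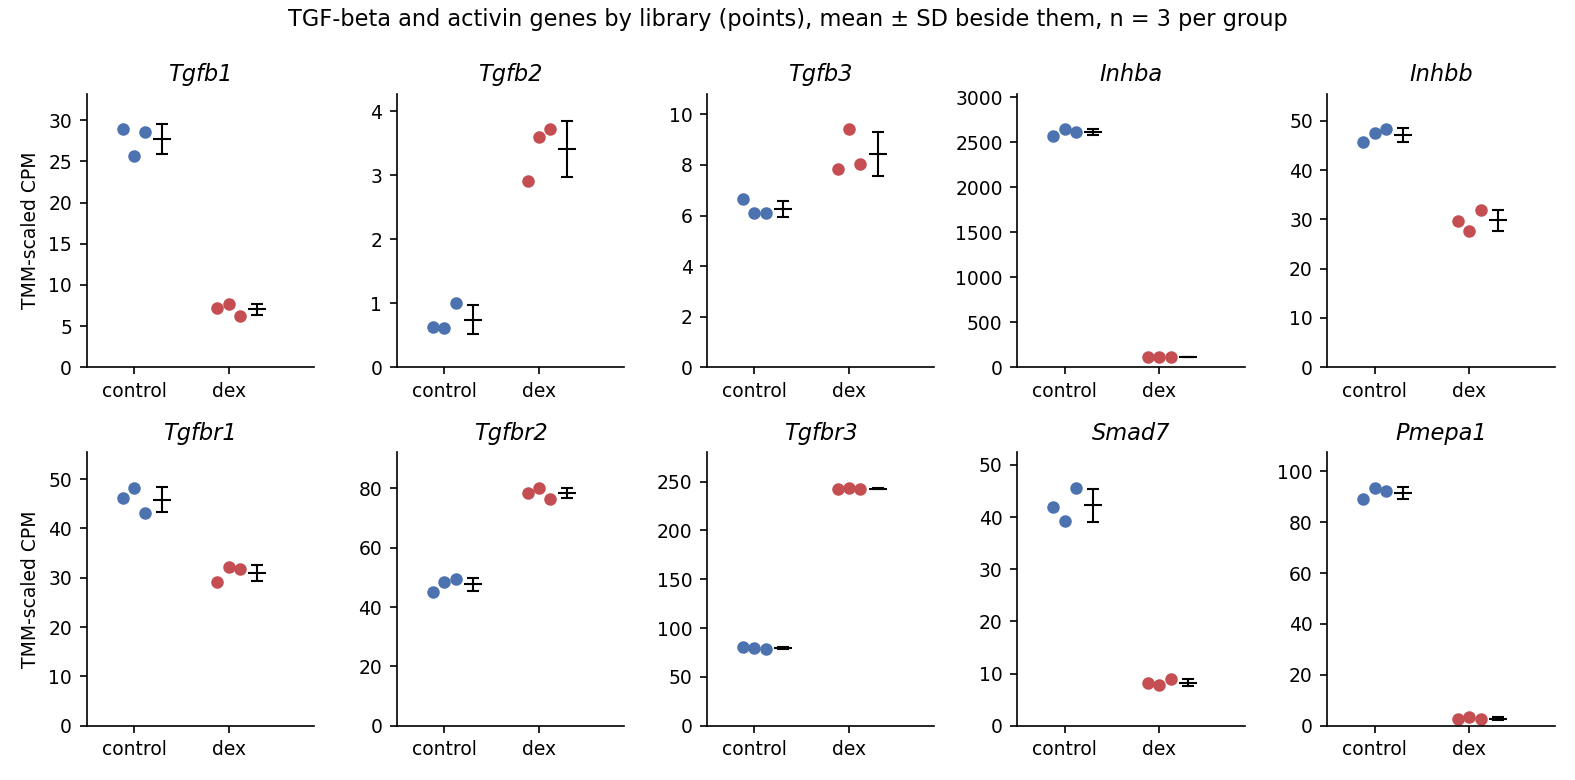
Level of each of the 10 genes in TMM-scaled CPM (vertical axis, linear from 0) in 3 control (blue) and 3 dexamethasone (red, "dex") libraries, with the mean and SD beside the points. Inhba drops from at least 2573 CPM to at most 113 CPM, Tgfbr3 rises to about 243 CPM, and no panel has overlapping groups.

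The TGF-beta ligand genes did not move together. Tgfb1 fell about 4-fold, Tgfb2 rose more than 4-fold from a very low level, and Tgfb3 rose least (log2 0.42, beside 2.19 for Tgfb2).

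Tgfb1, the ligand gene with the highest level per length in the controls (chromosome 1, 82480195 to 82497199), had 28.9, 25.7 and 28.6 CPM in the control libraries, against 7.13, 7.66 and 6.23 CPM in the treated libraries. Every control library was more than 3 times any dexamethasone library. The log2 fold change was -1.99 ± 0.10 (SE), 3.96-fold lower (adjusted p = 1.5e-25, edgeR's quasi-likelihood test). Platelet and macrophage lineages also make this ligand. Markers of megakaryocytes and platelets summed to 1.27 to 1.75 CPM in the controls and 1.97 to 2.01 CPM with dexamethasone. Among them Itga2b was called higher, from 0.550 to 0.935 CPM on average with overlapping groups (adjusted p = 0.0423, edgeR). Gp1ba (0.746 and 0.958 CPM) was not called. The defining gene Pf4 had 2 counts in control replicate 2 and no count in any other library. The part of these cells, or of the macrophage markers given above, of which Cd68, Lyz2 and Cd74 also fell, in the fall of Tgfb1 was not tested.

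Tgfb2 (chromosome 13, 105039853 to 105141030) held 24, 24 and 40 counts in the controls and 123, 127 and 151 with dexamethasone, or 0.622, 0.608 and 1.0 CPM against 2.91, 3.60 and 3.72 CPM. All dexamethasone libraries lay above all controls, and control replicate 3 was the highest of its group. Between groups its log2 fold change was 2.19 ± 0.24 (SE), 4.56-fold higher (adjusted p = 4.0e-12, edgeR). Few reads stand behind the control level, and the SE was the largest of the 10.

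Tgfb3 (chromosome 6, 109913757 to 109935533) had 6.64, 6.08 and 6.10 CPM in the controls, against 7.84, 9.42 and 8.03 CPM in the treated libraries. The groups were apart by little more than 1 CPM at their nearest. Its log2 fold change was 0.42 ± 0.09 (SE), 1.34-fold higher (adjusted p = 0.000494, edgeR). This was the smallest change of the 10, and the call was lost with the biological coefficient of variation fixed at 0.2 (adjusted p = 0.222) and against a fold of 1.5 (adjusted p = 1).

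Tgfb1 was most of the TGF-beta ligand transcript in the controls and a smaller part with dexamethasone. Levels of different genes were compared per exon length, as FPKM (CPM per kilobase of the length in the table). Tgfb1 made up 83.5%, 83.0% and 83.9% of the summed ligand FPKM in the control libraries and 47.6%, 44.7% and 42.6% with dexamethasone. The share of Tgfb3 went from 15.7%, 16.0% and 14.6% to 42.8%, 44.9% and 44.8%, and that of Tgfb2 from 0.890%, 0.974% and 1.46% to 9.64%, 10.4% and 12.6%. The 3 ligands summed to 15.5 ± 0.922 FPKM in the controls and 7.28 ± 0.633 FPKM with dexamethasone (SD, n = 3). For each of these, as for all 11 shares, sums and ratios computed within libraries, the exact two-sided permutation test gave p = 0.1 (0.1 after Benjamini-Hochberg adjustment over the 11), the smallest that 3 against 3 allows. Without the length correction Tgfb1 made up 79.8% and 37.2%, and Tgfb2 2.13% and 18.1%. By CPM, Tgfb3 (7.84, 9.42 and 8.03) then stood above Tgfb1 (7.13, 7.66 and 6.23) in every dexamethasone library.

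**Figure D2:**
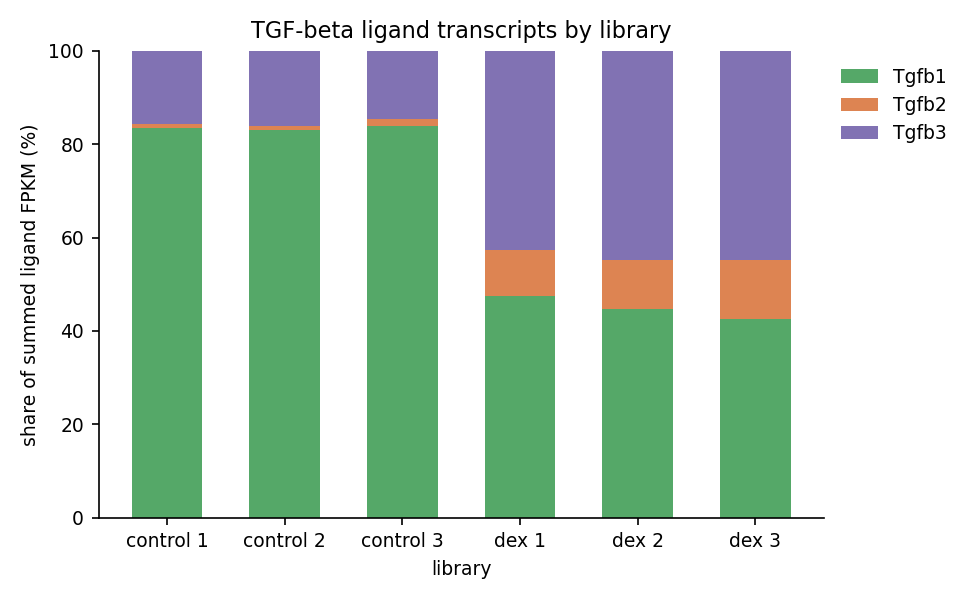
Share of Tgfb1, Tgfb2 and Tgfb3 in the summed FPKM of the 3 ligand genes (vertical axis, percent) in each of the 6 libraries. Tgfb1 takes 83.0% to 83.9% in the controls and 42.6% to 47.6% with dexamethasone, where Tgfb3 holds about as much.

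Inhba, which encodes the beta A subunit of activin A, was by far the most abundant of the 10 genes in the controls and fell more than 20-fold. Inhbb, which encodes the beta B subunit of activin B, fell much less.

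Inhba (chromosome 17, 51898217 to 51912496) had 2573, 2643 and 2610.1 CPM in the controls, against 112, 112 and 113 CPM in the treated libraries. Replicates lay within a few percent of each other in either group. This was a log2 fold change of -4.54 ± 0.01 (SE), 23.2-fold lower (adjusted p = 8.2e-57, edgeR). Ordered by mean FPKM, Inhba went from position 57 to position 2003 among the 14111 tested genes.

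Inhbb (chromosome 13, 35436532 to 35442222) had 45.6, 47.6 and 48.3 CPM in the controls, against 29.7, 27.7 and 32.0 CPM in the treated libraries. The groups did not overlap. Its log2 fold change was -0.66 ± 0.06 (SE), 1.58-fold lower (adjusted p = 3.8e-15, edgeR), and it was not called against a fold of 1.5 (adjusted p = 0.105). The ratio of Inhba to Inhbb per length went from 68.9, 67.8 and 66.0 in the controls to 4.60, 4.93 and 4.32 with dexamethasone. The ratio of Inhba to Tgfb1 went from 79.1 ± 6.22 to 13.5 ± 1.52 (SD, n = 3), so the activin transcript was the more abundant of the pair in all 6 libraries. Without the length correction the means were 55.3 and 3.78 for Inhba to Inhbb, and 94.4 and 16.2 for Inhba to Tgfb1.

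The receptor genes moved in opposite directions. Tgfbr1, the type I receptor that carries the signal to the Smads, fell modestly, while Tgfbr2, the ligand-binding type II receptor, and Tgfbr3 (betaglycan), a co-receptor that presents TGF-beta isoforms and also binds inhibin, rose.

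Tgfbr1 (chromosome 5, 63050758 to 63119635) had 46.2, 48.2 and 43.1 CPM in the controls, against 29.1, 32.2 and 31.8 CPM in the treated libraries. All controls were higher. The log2 fold change was -0.57 ± 0.07 (SE), 1.48-fold lower (adjusted p = 6.3e-13, edgeR), and the call was lost with the coefficient of variation fixed at 0.2 (adjusted p = 0.0646) and against a fold of 1.5 (adjusted p = 1).

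Tgfbr2 (chromosome 8, 124312754 to 124399494) had 45.2, 48.4 and 49.4 CPM in the controls, against 78.6, 80.3 and 76.6 CPM in the treated libraries. The lowest dexamethasone library stood well above the highest control. It had a log2 fold change of 0.72 ± 0.04 (SE), 1.65-fold higher (adjusted p = 1.1e-19, edgeR).

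Tgfbr3 (chromosome 14, 3506339 to 3682545) had 80.4, 79.2 and 78.1 CPM in the controls, against 242, 244 and 243 CPM in the treated libraries. Its replicates were among the tightest of the 10 genes. That gave a log2 fold change of 1.62 ± 0.01 (SE), 3.07-fold higher (adjusted p = 1.5e-37, edgeR).

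The proportions of the receptor transcripts inside a library also differed between the groups. The ratio of Tgfbr2 to Tgfbr1 per length was 2.06, 2.11 and 2.41 in the controls and 5.69, 5.26 and 5.08 with dexamethasone, with means of 1.04 and 2.54 without the length correction. Tgfbr3 stood below Tgfbr2 in all controls (ratios 0.820, 0.754 and 0.729) and above it in all dexamethasone libraries (1.42, 1.40 and 1.46). Without the length correction Tgfbr3 exceeded Tgfbr2 in both groups, with mean ratios of 1.67 and 3.10. Against Tgfbr1, Tgfbr3 went from 1.68 ± 0.0834 to 7.62 ± 0.404 (SD, n = 3).

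**Figure D3:**
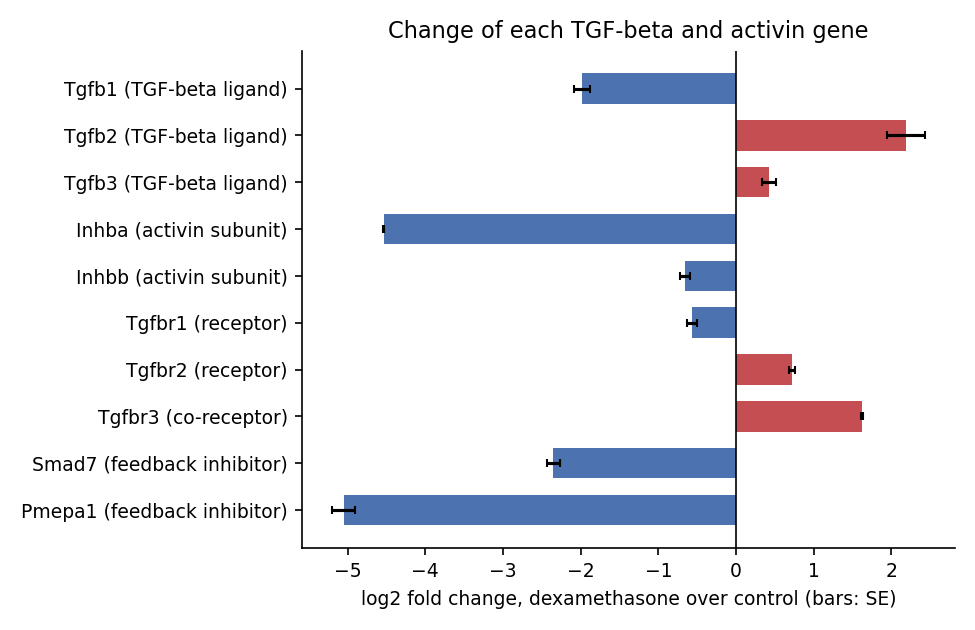
Log2 fold change of each of the 10 genes, dexamethasone over control (horizontal axis), with the SE from the spread between replicates, 3 libraries a group. The falls of Pmepa1 (-5.05) and Inhba (-4.54) are the largest, and Tgfb2 (2.19) and Tgfbr3 (1.62) lead the rises.

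Both inhibitor genes fell. Smad7, an inhibitory Smad that occupies the type I receptor and recruits ubiquitin ligases to it, fell about 5-fold, and Pmepa1, a membrane protein that sequesters Smad2 and Smad3, fell about 33-fold.

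Smad7 (chromosome 18, 71395830 to 71424157) had 41.8, 39.3 and 45.6 CPM in the controls, against 8.15, 7.71 and 8.94 CPM in the treated libraries. Each control library was more than 4 times any dexamethasone library. The log2 fold change was -2.35 ± 0.09 (SE), 5.10-fold lower (adjusted p = 1.5e-30, edgeR).

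Pmepa1 (chromosome 3, 171294856 to 171342646) had 89.1, 93.6 and 92.2 CPM in the controls, against 2.46, 3.40 and 2.51 CPM in the treated libraries, from 104, 120 and 102 counts. Dexamethasone replicate 2 was the highest of its group and still far below the controls. The log2 fold change was -5.05 ± 0.15 (SE), 33.1-fold lower (adjusted p = 4.4e-43, edgeR), which placed it at position 121 by absolute change among the 14111 tested genes, beside 156 for Inhba. The ratio of Pmepa1 to Smad7 per length went from 5.65 ± 0.481 to 0.885 ± 0.225 (SD, n = 3), and that of Smad7 to Tgfbr1 from 1.27 ± 0.169 to 0.365 ± 0.0324. Without the length correction the mean ratios of Pmepa1 to Smad7 were 2.18 and 0.341, and those of Smad7 to Tgfbr1 0.926 and 0.267.

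The order of the 10 genes per length differed between the groups. In the controls Inhba led with 1021 FPKM, followed by Pmepa1 (55.3), Tgfbr2 (17.1), Inhbb (15.1), Tgfbr3 (13.1), Tgfb1 (13.0), Smad7 (9.84), Tgfbr1 (7.81), Tgfb3 (2.39) and Tgfb2 (0.172), all group means in FPKM. The only neighbours whose replicates overlapped were Tgfbr3 and Tgfb1. With dexamethasone the order was Inhba (44.0 FPKM), Tgfbr3 (40.2), Tgfbr2 (28.2), Inhbb (9.56), Tgfbr1 (5.28), Tgfb1 (3.27), Tgfb3 (3.22), Smad7 (1.93), Pmepa1 (1.69) and Tgfb2 (0.790). There the replicates of Tgfb1 and Tgfb3 overlapped, and so did those of Smad7 and Pmepa1. Per length, Inhba stayed first and Tgfb2 last in both groups, while Pmepa1 moved from position 2 to position 9 and Tgfbr3 from position 5 to position 2. Without the length correction both ends differed with dexamethasone. There Tgfbr3 (243 CPM on average) stood above Inhba (112 CPM), and Tgfb2 (3.41 CPM) above Pmepa1 (2.79 CPM).

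**Figure D4:**
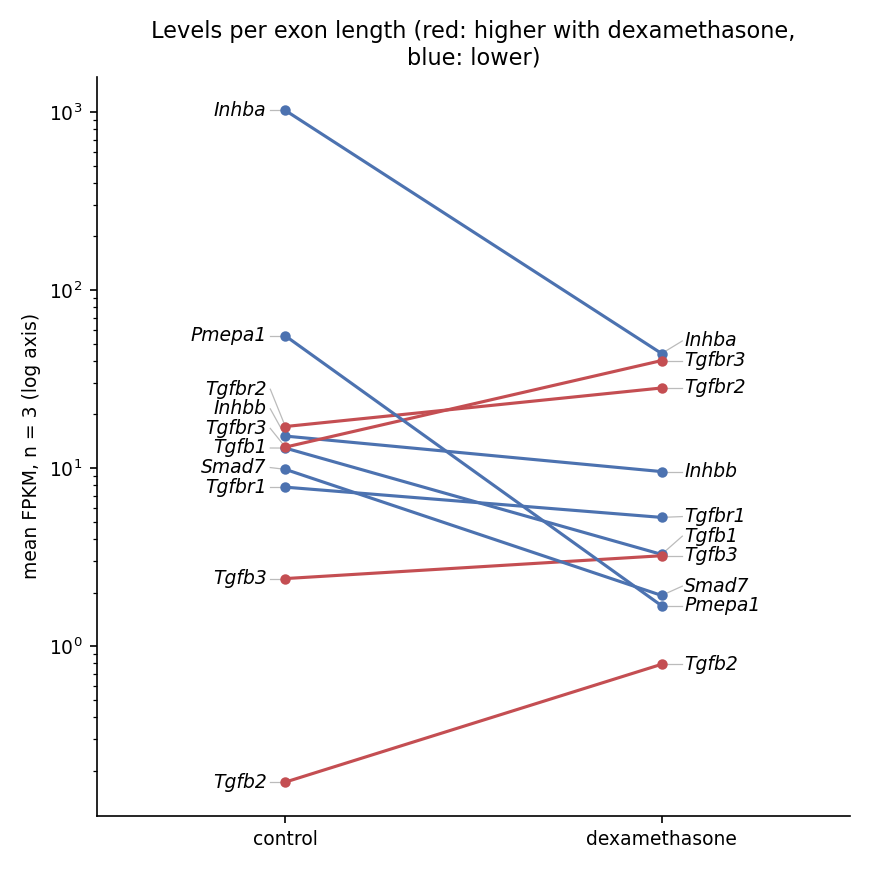
Mean level per exon length of each of the 10 genes in FPKM (vertical log axis) in control and dexamethasone libraries, 3 each, joined by lines that are red for rises and blue for falls. Inhba falls from 1021 to 44.0 FPKM and meets Tgfbr3, which rises from 13.1 to 40.2 FPKM, and Pmepa1 crosses most of the other genes.

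The other genes of the pathway were described from 7 lists by role, 107 genes in all, of which 96 were tested. Of these, 24 rose (25%) and 57 fell (59.4%), beside 32.3% and 31.7% of all tested genes. At least 2-fold, 10 of the 96 rose and 32 fell, where 8.65% and 7.00% of all tested genes did. Their median log2 fold change was -0.44, beside -0.00019 over all tested genes. The lists were written with earlier results of these data known, and no test of the lists was made.

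Genes of latency and activation were mostly lower, with 3 rises and 10 falls among 15 tested and a median log2 fold change of -0.71. Rises made up 20% and falls 66.7%, beside 32.3% and 31.7% of all tested genes. Ltbp1, a latent TGF-beta binding protein, fell from 334 ± 9.27 to 238 ± 4.89 CPM (SD, n = 3), though not against a fold of 1.5 (adjusted p = 1, edgeR) or with the coefficient of variation fixed at 0.2 (adjusted p = 0.123). Thbs1 (thrombospondin 1), which can release the latent ligand, fell from 2318 ± 37.0 to 782 ± 7.05 CPM. Mmp2, a gelatinase, fell from 1139 ± 9.02 to 367 ± 10.3 CPM, and Furin, the convertase that cleaves the TGF-beta propeptide, from 118 ± 3.54 to 45.0 ± 1.59 CPM. Lrrc32, which encodes GARP, a surface anchor for latent TGF-beta, went the other way, from 16.4 ± 1.60 to 40.0 ± 1.30 CPM (log2 1.28). So did Itgb8, the beta subunit of an integrin that activates the latent ligand, named after its values were seen, from 18.4 ± 1.41 to 44.2 ± 1.19 CPM (log2 1.26). Itgav, the alpha partner of that subunit and also named afterwards, fell by 0.79 on the log2 scale.

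Among 8 tested extracellular ligand traps, 2 rose, 4 fell and 2 did not pass the test, with a list median of -0.25 on the log2 scale. That is 25% and 50%, beside 32.3% and 31.7% of all tested genes. Fst (follistatin), which binds activins, rose from 84.7 ± 0.895 to 323 ± 2.45 CPM (SD, n = 3), which is 1.93 ± 0.01 (SE) on the log2 scale with an adjusted p of 5.1e-41 (edgeR). Per exon length, Inhba stood at 1021 FPKM and Fst at 77.3 FPKM in the controls, while with dexamethasone Inhba stood at 44.0 FPKM and Fst at 294 FPKM. The activin transcript was thus the higher of the pair in the controls and the follistatin transcript with dexamethasone. This pair was not among the 11 shares, sums and ratios given above. Fstl3, named after its values were seen, stood at 3.41 ± 0.341 and 2.96 ± 0.382 CPM and did not pass (adjusted p = 0.259, edgeR). The proteoglycans Bgn (biglycan) and Fmod (fibromodulin), which bind TGF-beta, fell by 1.52 and 1.49 on the log2 scale. Vasn, a membrane protein that traps TGF-beta, fell by 0.30, a call not kept against a fold of 1.5 (adjusted p = 1) or with the coefficient of variation fixed at 0.2 (adjusted p = 0.426).

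Among the other receptors and co-receptors 1 rose, 3 fell and 2 did not pass of 6 tested, and the list had a log2 median of -0.09. As shares, 16.7% rose and 50% fell, beside 32.3% and 31.7% of all tested genes. Cd109, a membrane co-receptor that limits TGF-beta signalling, rose from 4.26 ± 0.776 to 8.43 ± 0.609 CPM (SD, n = 3). Acvr1b, the type I receptor of activin, fell by 0.20 on the log2 scale, and some of its reads may belong to LOC103692984, whose exons it overlaps. Its call was lost against a fold of 1.5 (adjusted p = 1) and with the coefficient of variation fixed at 0.2 (adjusted p = 0.628). Acvr2a, an activin type II receptor named after its values were seen, stood at 24.7 ± 0.786 and 24.9 ± 1.60 CPM and did not pass (adjusted p = 0.887, edgeR). Eng (endoglin) had a log2 fold change of -0.20 and overlapping groups. It was not called when control replicate 2 was left out (adjusted p = 0.0957), nor when dexamethasone replicate 1 (0.122) or 3 (0.255) was, with DESeq2 (0.0612) and with library size alone (0.085). Acvrl1, the remaining fall and also named after its values were seen, went from 0.772 ± 0.231 to 0.193 ± 0.0523 CPM (log2 -1.97, adjusted p = 6.4e-05, edgeR). Acvr2b, the other activin type II receptor, named after its values were seen, stood as low, at 0.524 ± 0.109 and 0.871 ± 0.215 CPM. It did not pass (adjusted p = 0.0526). It was called higher when control replicate 2 (adjusted p = 0.0464) or dexamethasone replicate 3 (0.0264) was left out and with library size alone (0.0414), which made 2 rises in place of 1.

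Of 6 tested other ligands 1 rose, 4 fell and 1 did not pass, most at low levels, with a list median of -1.22 on the log2 scale. In percent, 16.7% rose and 66.7% fell, beside 32.3% and 31.7% of all tested genes. The falls, named after their values were seen, were Inhbe (log2 -5.30), Gdf15 (-2.88), Inhbc (-1.57) and Gdf1 (-0.86), all below 5 CPM on average. Some reads of Gdf1 may belong to Cers1, whose exons it overlaps. Gdf11, an activin-like ligand, rose from 55.8 ± 2.56 to 75.5 ± 2.44 CPM (SD, n = 3), or by 0.44 on the log2 scale, which did not pass against a fold of 1.5 (adjusted p = 1, edgeR) or with the coefficient of variation fixed at 0.2 (adjusted p = 0.185). Inha, the alpha subunit that turns activin into inhibin and was named after its values were seen, stood at 1.51 ± 0.210 and 1.92 ± 0.190 CPM and did not pass (adjusted p = 0.154).

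The signal carriers changed unevenly. Of 12 tested Smads and nuclear partners 3 rose, 5 fell and 4 did not pass the test, with a list median of -0.08 on the log2 scale. The rises were 25% and the falls 41.7%, beside 32.3% and 31.7% of all tested genes. Smad3 fell from 135 ± 4.74 to 56.2 ± 0.530 CPM (SD, n = 3), which is -1.26 ± 0.03 (SE) on the log2 scale with an adjusted p of 4.8e-31 (edgeR). Smad2, which shares its receptors, went from 33.2 ± 0.864 to 29.1 ± 1.12 CPM (log2 -0.19), a call lost against a fold of 1.5 (adjusted p = 1) and with the coefficient of variation fixed at 0.2 (adjusted p = 0.663). Smad4, the common partner, stood at 48.7 ± 2.26 and 51.2 ± 1.57 CPM and did not pass (adjusted p = 0.168), except with library size alone (0.0338). Foxo1 and Foxo3, forkhead factors that bind Smads, rose by 2.26 and 1.86 on the log2 scale. Foxo3 stood at 132 CPM in dexamethasone replicate 1, below the 172 and 175 CPM of the other two. Crebbp, a coactivator, fell by 0.27, a call lost against a fold of 1.5 (adjusted p = 1) and with the coefficient of variation fixed at 0.2 (adjusted p = 0.483).

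Like Smad7 and Pmepa1, most genes listed as other intracellular brakes were lower, with 2 rises and 11 falls among 15 tested and a median log2 fold change of -0.56. Here 13.3% rose and 73.3% fell, beside 32.3% and 31.7% of all tested genes. Skil and Ski, corepressors that bind the Smads, fell from 307 ± 15.2 to 47.8 ± 3.31 CPM and from 128 ± 2.62 to 51.7 ± 1.0 CPM (SD, n = 3). Ldlrad4, a relative of Pmepa1 that also sequesters Smads, fell by 1.77 on the log2 scale, and Tgif1, another corepressor, by 1.18. The rises, named after their values were seen, were Wwp1 (log2 0.36), a ubiquitin ligase, and Usp15 (log2 0.07). Usp15 stands in this list but is no brake: it is a deubiquitinase known to promote the signal at the type I receptor and the Smads, and some of its reads may belong to AABR07057347.1, whose exons it overlaps. Its rise was lost without control replicate 2 (adjusted p = 0.0754) or 3 (0.166), without dexamethasone replicate 2 (0.0561) or 3 (0.0658), and with DESeq2 (0.0537), which left 1 rise. Against a fold of 1.5 the counts were 0 and 5, where 20.0% of all tested genes were called in either direction. With the coefficient of variation fixed at 0.2 they were 0 and 7, where 26.2% of all tested genes were called.

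Genes known as targets of TGF-beta moved in both directions, with 12 rises and 21 falls among 36 tested and a median log2 fold change of -0.75. The rises made up 33.3% and the falls 58.3%, beside 32.3% and 31.7% of all tested genes, so the rises were near the background share. Many of the listed targets also answer to other signals, and the list holds Id1, Id2 and Id3, which TGF-beta can repress. Tgfbi, a matrix protein named for its induction by TGF-beta, fell from 35.8 ± 0.312 to 6.32 ± 0.416 CPM (SD, n = 3). Itga11, a collagen-binding integrin subunit, fell from 52.8 ± 2.85 to 0.749 ± 0.139 CPM (log2 -6.14). Il11, a cytokine, Tnfaip6, which encodes the hyaluronan-binding protein TSG-6, and Tnc (tenascin-C) had log2 fold changes of -9.56, -3.69 and -3.28.

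Ccn2, connective tissue growth factor, another known target, went the other way from Tgfbi, Smad7 and Pmepa1 and rose from 74.7 ± 4.39 to 122 ± 4.75 CPM (SD, n = 3), which is 0.70 ± 0.06 (SE) on the log2 scale with an adjusted p of 5.6e-19 (edgeR).

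**Figure D5:**
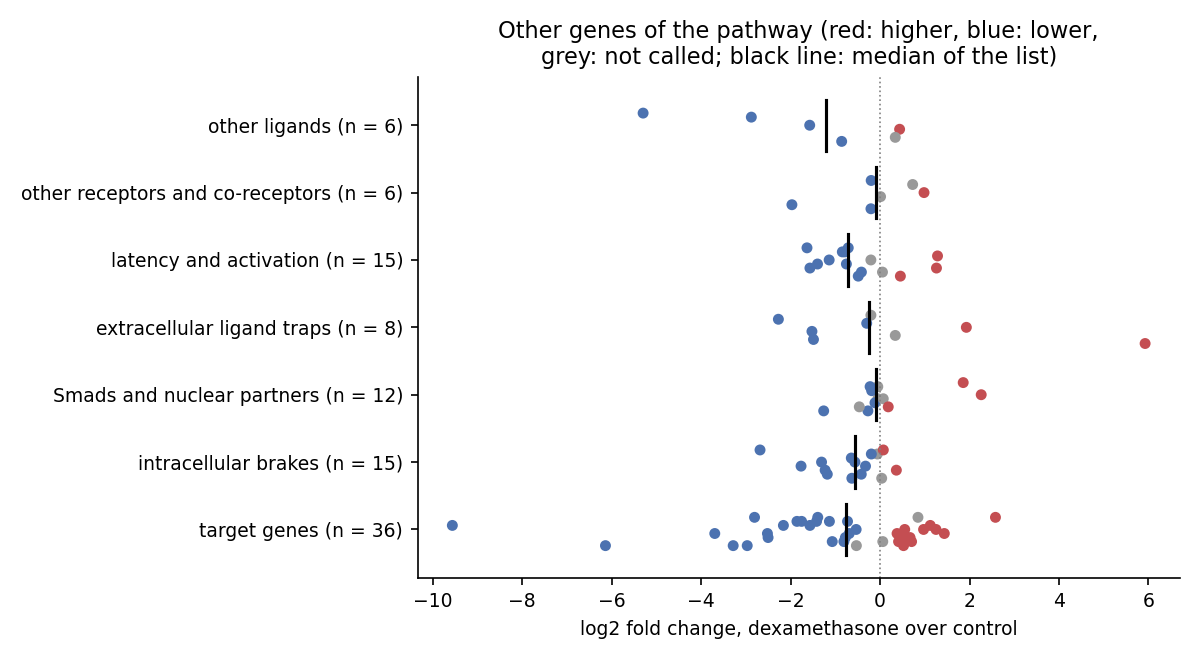
Log2 fold change, dexamethasone over control (horizontal axis), of each tested gene in the 7 lists, with called genes in red (higher) or blue (lower), others in grey, and the median of each list as a black line. Medians lie between -1.22 (other ligands) and -0.08 (Smads and nuclear partners), and the target genes spread from -9.56 (Il11) to 2.58 (Id2).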

How the data were processed

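Read counts per gene for the 6 libraries were deposited in a single table with each gene's exon coordinates and length, per the file headers. Total RNA was made into SMARTER mRNA-seq libraries, per the labels' protocols. The sources used here do not name the aligner, the counter or the strand setting. The build is mm10, a mouse build, per the submitters' processing notes, but all 10 genes lie on the same chromosome in RefSeq's GRCr8 table of rat genes and 875 genes lie on chromosome 20, which mice lack. Coordinates are the table's own, in a rat build not given in the sources used here.

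filterByExpr (by group) left 14111 genes. After TMM scaling they were tested in edgeR 4.0.16 under R 4.3.3 by a robust quasi-likelihood fit without covariates, with Benjamini-Hochberg adjustment. SE values rest on how far replicates differed in log2 CPM, computed with a prior count of 2. The scripts were tested on simulated data. Low counts were mostly even (70.3% of values from 1 to 20), so they may stand for read pairs, and 6 counts came to 0.142 to 0.170 CPM by library. With no molecular identifiers, reads are not independent molecules.

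The genes and lists were chosen with earlier results of these data known. Named were the 10 genes, 8 fixed pathway genes (1 of them is not reported here), and up to 4 called genes per list with the largest absolute change and at least 5 CPM in a group. Col1a2 and Pecam1 were listed and are not analysed here. Alternatives were DESeq2 1.42.0, limma-voom (limma 3.58.1), library size alone, no filter, a replicate block, a coefficient of variation fixed at 0.2, a test against a fold of 1.5, leaving out each library, and no length correction.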

Additional observations from a re-analysis of the deposited data

How the results depend on the processing

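Direction was kept by all 10 genes under all 13 alternative fits. Tgfb1, Tgfb2, Inhba, Tgfbr2, Tgfbr3, Smad7 and Pmepa1 also kept their calls in all 13. With the coefficient of variation fixed at 0.2, the log2 fold changes of Tgfb3 (0.43, adjusted p = 0.222) and Tgfbr1 (-0.56, adjusted p = 0.0646) were not called by edgeR. Against a fold of 1.5, those of Tgfb3 (0.42), Tgfbr1 (-0.57) and Inhbb (-0.66) were not called (adjusted p = 1, 1 and 0.105). Those settings demand a larger change by construction. Over all genes they called 1993 higher and 1700 lower, and 1549 higher and 1278 lower, and among the pathway genes 14 and 13 higher. Among the lists they took the rises of target genes from 12 to 7 and 6, and the falls of Smads and partners from 5 to 1 and of other receptors from 3 to 1 under both. Leaving out 1 library at a time gave 4334 to 4464 higher and 4218 to 4333 lower calls over all genes, and 4 and 6 among the 10 genes each time.

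With the replicate number as a block, 4553 genes were called higher and 4438 lower, with 4 and 6 among the 10 genes. Same-numbered libraries did not deviate together (correlations of 0.00264, -0.00784 and 0.0203), and not every library correlated best with its own number. Correlations this small cannot show whether the numbers pair the samples, since the origin of the replicates is not given.

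Depth limits Tgfb2 most, with 24 to 40 counts per control library. FPKM rests on the exon lengths in the table, which need not match the transcripts these cells use.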

Other observations

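Further genes of the pathway, chosen after their values were seen, add to the picture of ligands and targets. Inhbe, a liver-type inhibin beta subunit, held 27, 32 and 34 counts in the controls and 0, 0 and 2 with dexamethasone. A2m, a plasma protease inhibitor that also binds TGF-beta, went from 4, 2 and 0 counts to 158, 103 and 128. Id1, Id2 and Id3, inhibitors of helix-loop-helix factors that BMP signals induce and TGF-beta can repress, rose by 1.25, 2.58 and 0.51 on the log2 scale, from 2.32, 0.408 and 11.3 CPM on average in the controls. Acta2 and Tagln, contractile genes of myofibroblasts, fell by 2.97 and 2.81, Acta2 from 3.01 to 0.382 CPM on average. Fn1 (fibronectin) and Lox, which cross-links collagen, fell by 0.73 and 0.53. Other targets rose: Eln by 1.44, from 0.727 CPM, Cdkn1a by 0.97, Plau by 0.67, Sphk1 by 0.55, Col4a1 by 0.52 and Snai2 by 0.41. Calls of Lox, Id3, Sphk1, Col4a1 and Snai2 were lost against a fold of 1.5 and with the coefficient of variation fixed at 0.2. That of Plau was lost against a fold of 1.5. In all, 12 of the listed targets rose and 21 fell. The fibrillar collagen genes Col3a1 and Col1a1 went in opposite directions: Col3a1 rose from 1996 to 4346 CPM on average, and Col1a1 fell from 1138 to 665 CPM. Some reads of Tagln may belong to Sidt2, of Col3a1 to AABR07067556.1, of Fn1 to AABR07068042.1 and of Lox to Zfp474, whose exons they overlap.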
